A study of Mus musculus with 5 samples.

Results

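The regions described here were open chromatin in 4 stages of blood development from mouse embryonic stem cells, and were not listed in the fifth, the macrophage. They were chosen by the presence or absence of a site in each of 5 lists of DNaseI hypersensitive sites (DHSs), and not by any test. Each listed site was replaced by a window of 500 bp centred on it, and neighbouring windows, whatever their stage, were joined into merged regions where they shared 25% or more of a window's length. Of 68846 merged regions, 1601 (2.33%, Wilson 95% interval 2.22 to 2.44) held a window of mesoderm (MES), hemangioblast (HB), hemogenic endothelium (HE) and hematopoietic progenitors (HP), and none of macrophages (MAC). They are called non-MAC regions below. Their number was 776 when sites under each list's median width were dropped. They made up 15.0% (14.3 to 15.7) of the 10668 regions open in all of MES, HB, HE and HP, and the other 9067, here the shared regions, were open in MAC as well.

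All 5 populations were made in culture from a mouse ES cell line of strain 129 with a GFP reporter at Brachyury, and no other treatment was named. The hemangioblast is a mesodermal precursor of blood and vessel cells, and hemogenic endothelium is the vessel-like cell from which blood progenitors emerge. MES cells were GFP+ and Flk1-, and HB cells were GFP+ and Flk1+. HE cells were labelled GFP+, Tie2+, cKit+ and CD41-, HP cells CD41+, and MAC cells CD11b+. The lists held 17734 (HP) to 37456 (MAC) sites, with 1 list per stage. The length of the deposited MAC list is not the one given in the study's supplement, and the list was used as it is. The MAC label names 2 replicates for its 1 list. No spread between cultures could therefore be measured, the lists give no read depth, the study's own read totals were not used here, and all intervals are Wilson 95% intervals that cover counting error only. The identity of the MAC list was checked with 31 genes of macrophages. A site lay within 1 kb of a transcription start site (TSS) for 26 of them in MAC, 6 in MES, 8 in HB, 9 in HE and 6 in HP.

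DNaseI cuts DNA where nucleosomes are displaced, so that a hypersensitive site marks a promoter, enhancer or insulator at which regulatory proteins have gained access. Sets of such sites open and close as cells differentiate, and the sites of a stage hold the recognition sequences of the factors active in it. In the Hippo pathway, which links cell contact and shape to growth, the kinases LATS1 and LATS2 hold the coactivators YAP and TAZ in the cytoplasm, and when the kinases are inactive YAP binds the TEAD factors on DNA and switches on genes such as Ccn1 and Ccn2. TEAD factors recognize a CATTCC core. GATA factors recognize GATA cores and serve endothelium, progenitors and red cells, and CTCF binds insulators and loop anchors in most cell types.

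The sequences that carry the description are shown first. The genome build is mm10 (GRCm38.p6, RefSeq) and the forward strand is given throughout, 5′ to 3′. Capitals mark the matches to a consensus on either strand, and everything else is in lower case. The first group was taken from non-MAC regions at or near genes of the Hippo pathway, and its capitals mark the TEAD consensus ACATTCCA, ACATTCCT, GCATTCCA or GCATTCCT. The Ccn2 stretch (chr10:24595242-24595441) ends on the last base before the TSS at 24595442 and holds 3 matches. The Amotl2 stretch (chr9:102717604-102717803) starts a little before its region, which begins at 102717630, and ends on the last base before the TSS at 102717804. The Tead1 stretch (chr7:112679025-112679224) lies upstream of the TSS at 112679356. The Ccn1 stretch (chr3:145632974-145633173) is intergenic, and the Ajuba stretch (chr14:54572936-54573135) lies in an intron and holds 2 matches. The Lats2 match lies in an exon and is shown with its nearest neighbours (chr14:57746102-57746131).
Ccn2, promoter: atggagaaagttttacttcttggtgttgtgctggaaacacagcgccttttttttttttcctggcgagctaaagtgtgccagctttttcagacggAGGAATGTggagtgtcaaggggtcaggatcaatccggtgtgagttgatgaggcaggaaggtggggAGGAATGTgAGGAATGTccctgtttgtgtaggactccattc
Amotl2, promoter: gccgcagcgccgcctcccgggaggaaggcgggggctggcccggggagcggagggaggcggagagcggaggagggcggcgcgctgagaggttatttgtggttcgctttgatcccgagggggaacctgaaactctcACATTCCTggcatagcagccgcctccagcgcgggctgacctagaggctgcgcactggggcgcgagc
Tead1, promoter: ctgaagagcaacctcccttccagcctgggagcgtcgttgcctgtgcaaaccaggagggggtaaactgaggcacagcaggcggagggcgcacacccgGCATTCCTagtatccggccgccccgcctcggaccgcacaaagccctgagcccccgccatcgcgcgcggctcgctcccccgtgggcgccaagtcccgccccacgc
Ccn1, intergenic: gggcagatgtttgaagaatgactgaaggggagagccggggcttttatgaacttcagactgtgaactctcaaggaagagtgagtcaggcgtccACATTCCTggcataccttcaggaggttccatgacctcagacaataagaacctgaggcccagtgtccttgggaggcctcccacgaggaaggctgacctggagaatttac
Ajuba, intron: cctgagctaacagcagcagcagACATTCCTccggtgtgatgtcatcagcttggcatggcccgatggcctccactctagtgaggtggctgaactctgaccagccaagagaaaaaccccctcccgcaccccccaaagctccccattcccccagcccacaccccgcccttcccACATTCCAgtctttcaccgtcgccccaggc
Lats2, promoter: ctacattgttgGCATTCCAcgggcgtcacg

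The second group shows the same TEAD capitals at other genes. The Gata2 stretch (chr6:88198882-88199081) lies in an intron just downstream of the TSS at 88198664 of this progenitor transcription factor. The stretch whose nearest gene is Myc (chr15:62328458-62328657) lies between genes and holds 2 matches, one in each orientation. The region nearest to 2610008E11Rik was among the non-MAC regions with most TEAD matches, and 2 of its 3 matches are shown (chr10:79106380-79106579).
Gata2, intron: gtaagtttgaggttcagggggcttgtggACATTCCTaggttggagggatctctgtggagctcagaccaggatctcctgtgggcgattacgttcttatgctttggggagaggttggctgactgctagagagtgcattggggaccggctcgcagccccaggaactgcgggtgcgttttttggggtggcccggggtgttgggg
Myc, intergenic: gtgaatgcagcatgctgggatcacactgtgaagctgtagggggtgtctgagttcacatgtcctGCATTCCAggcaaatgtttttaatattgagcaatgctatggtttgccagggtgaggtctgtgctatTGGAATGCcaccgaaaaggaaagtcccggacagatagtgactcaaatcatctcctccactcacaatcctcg
2610008E11Rik, intergenic: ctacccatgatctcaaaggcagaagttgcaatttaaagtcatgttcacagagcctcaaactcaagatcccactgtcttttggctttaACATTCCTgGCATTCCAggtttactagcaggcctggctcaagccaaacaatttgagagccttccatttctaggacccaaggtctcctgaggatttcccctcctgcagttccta

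The third group shows other consensus sequences. Capitals mark the AGATAA consensus of GATA factors in an intron 29.5 kb downstream of a TSS of Lyl1 (chr8:84730837-84731036), a basic helix-loop-helix factor related to Tal1, and in an intron of Dpf3 (chr12:83072935-83073134), a subunit of a chromatin remodelling complex. Capitals mark the CTCF consensus in the region nearest to Tex44 (chr1:86440578-86440777), which lies in an intron.
Lyl1, intron: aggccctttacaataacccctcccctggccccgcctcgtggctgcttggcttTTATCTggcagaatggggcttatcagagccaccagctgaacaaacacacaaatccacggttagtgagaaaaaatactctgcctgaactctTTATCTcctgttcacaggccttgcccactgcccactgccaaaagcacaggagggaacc
Dpf3, intron: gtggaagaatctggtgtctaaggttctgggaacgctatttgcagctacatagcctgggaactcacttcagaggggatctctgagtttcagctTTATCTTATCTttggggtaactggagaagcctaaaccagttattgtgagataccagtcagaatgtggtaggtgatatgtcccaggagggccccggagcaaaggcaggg
Tex44, intron: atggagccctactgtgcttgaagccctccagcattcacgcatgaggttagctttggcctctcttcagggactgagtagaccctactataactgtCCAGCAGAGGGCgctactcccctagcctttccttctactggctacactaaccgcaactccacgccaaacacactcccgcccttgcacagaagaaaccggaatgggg

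Non-MAC regions lay at promoters less often than shared regions did. Of the 1601 regions, 803 (50.2%, 47.7 to 52.6), were centred within 2 kb of a TSS of a protein-coding gene, against 82.4% (81.6 to 83.2) of shared regions and 24.0% of all merged regions on the chromosomes. The share was 36.6% (33.2 to 40.2) in regions that lacked a site in HP alone. In regions open in MES, HB and HE only it was 40.0% (37.7 to 42.2). Both intervals lay below that of the non-MAC regions. A further 434 non-MAC regions (27.1%) lay at 2 to 20 kb and 364 (22.7%) beyond 20 kb. By gene structure, 31.5% were centred in an exon outside the coding part, 29.8% between genes, 29.4% in an intron and 9.31% in a coding exon. When the narrow sites under each list's median were dropped, the share at promoters was 77.8%, which was still below the 91.3% of shared regions made the same way.

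The non-MAC regions were poorer in CpG than shared regions and richer than open regions at large. A region was called CpG-rich when, in the 500 bp around its centre, the GC content was 0.5 or more and the observed to expected CpG ratio 0.6 or more. By that rule 41.8% (39.4 to 44.2) of non-MAC regions and 78.4% (77.5 to 79.2) of shared regions were CpG-rich, against 18.2% of all merged regions and 33.3% of regions that lacked a site in HP alone. When sites under each list's median width were dropped, the share was 67.9% against 88.7% of shared regions. The difference from shared regions was seen both at promoters and away from them. Among promoter regions the share was 68.5% (65.2 to 71.6) against 88.6% (87.9 to 89.3), and away from promoters it was 14.9% (12.6 to 17.6) against 30.3% (28.1 to 32.6). In both places the intervals were apart. All merged regions had 65.9% at promoters, within the interval of the non-MAC promoters, and 3.21% away from them. Regions that lacked a site in HP alone had 70.0% (64.2 to 75.2) at promoters and 12.1% (9.41 to 15.4) away from them. Regions open in MES, HB and HE only had 61.4% (57.8 to 64.9) and 13.9% (12.0 to 16.1), and 32.9% in both places together. In all, 6 of the 1601 regions were more than 50% repeat-masked.

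Within a region the 4 stages gave sites of different width. Median widths were 800 bp for MES, 1000 bp for HB, 1300 bp for HE and 700 bp for HP. Read against the medians of the whole lists (800, 900, 1200 and 900 bp), the sites of HB and HE were somewhat wider and those of HP narrower. In HB 73.0% of non-MAC regions (70.7 to 75.1) held a site at or above the list median, in HE 66.6%, in MES 54.2% and in HP 30.8% (28.6 to 33.1). Among all merged regions with a site in the stage, these shares were 57.0%, 54.01%, 50.4% and 51.3%. Shared regions had wider sites in every stage, with 90.3% in HB, 91.6% in HE, 82.8% in MES and 79.0% (78.2 to 79.8) in HP. The departures from all merged regions differed by place. At promoters the non-MAC share was 65.5% against 72.7% in MES, 80.4% against 80.3% in HB, 77.2% against 83.0% in HE and 37.0% against 73.6% in HP. Over 2 kb from a TSS it was 42.7% against 26.0% in MES, 65.4% against 35.9% in HB, 55.9% against 36.8% in HE and 24.6% against 23.9% in HP. HE alone had the widest site in 75.8% of non-MAC regions, and HP alone in 0.750% (12 regions). The HB site was wider than the MES site in 1273 regions and equal to it in 185. The part of library depth in the widths was not tested.

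**Figure D1:**
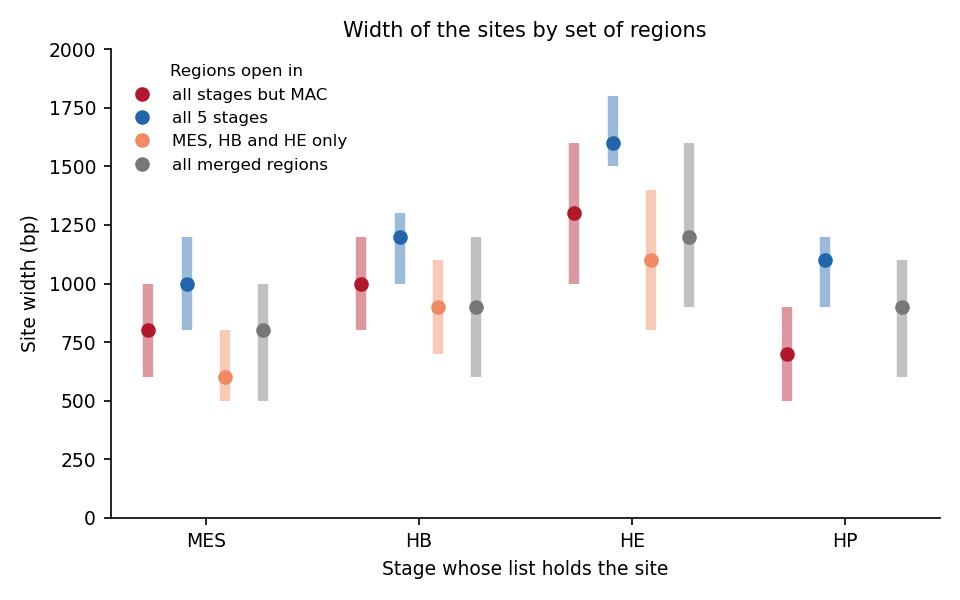
Width of the deposited sites in bp (vertical axis) by the stage whose list holds the site (horizontal axis), for 4 sets of regions. Points are medians and bars run from the first to the third quartile. The sites of non-MAC regions (red) had a median of 700 bp in HP against 1100 bp for shared regions (blue), and 1000 bp against 1200 bp in HB.

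TEAD sequences were frequent in the non-MAC regions away from promoters. Of 798 regions over 2 kb from a TSS, 161 (20.2%, 17.5 to 23.1) held the TEAD consensus in their central 500 bp. Among shared regions over 2 kb it was 138 of 1596 (8.65%, 7.37 to 10.1), and among all merged regions over 2 kb 12.5% (12.2 to 12.7). Regions that lacked a site in HP alone had 8.35% (6.15 to 11.3), and regions open in MES, HB and HE only had 17.5% (15.4 to 19.9). The interval of non-MAC regions thus lay above that of the shared regions and overlapped that of regions lost already in HP. The same letters reversed, which keep the base composition, were found in 2.76% (1.83 to 4.14) of non-MAC and 2.63% of shared regions.

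The difference in TEAD was seen outside CpG-rich sequence, where the share was 22.5% (19.6 to 25.8) against 9.80% (8.19 to 11.7) in shared regions. In CpG-rich regions over 2 kb it was 8 of 119 (6.72%, 3.45 to 12.7) against 5.99% (4.20 to 8.47), with overlapping intervals. It was 17.5% (14.2 to 21.4) for non-MAC regions at 2 to 20 kb and 23.4% (19.3 to 28.0) beyond 20 kb. The 161 regions comprised 135 with 1 match, 23 with 2 and 3 with 3. Members without any MAC interval within 1 kb had 20.6% (17.9 to 23.7). Of the 17 patterns of stages with at least 300 regions over 2 kb, the non-MAC pattern ranked 4 for TEAD, after HB, HE and HP together (26.4%), HB and HE (23.3%) and HE and HP (21.8%). Each of these 3 patterns also left out MAC. The pattern of MAC alone was the lowest, at 7.47% (7.11 to 7.84).

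**Figure D2:**
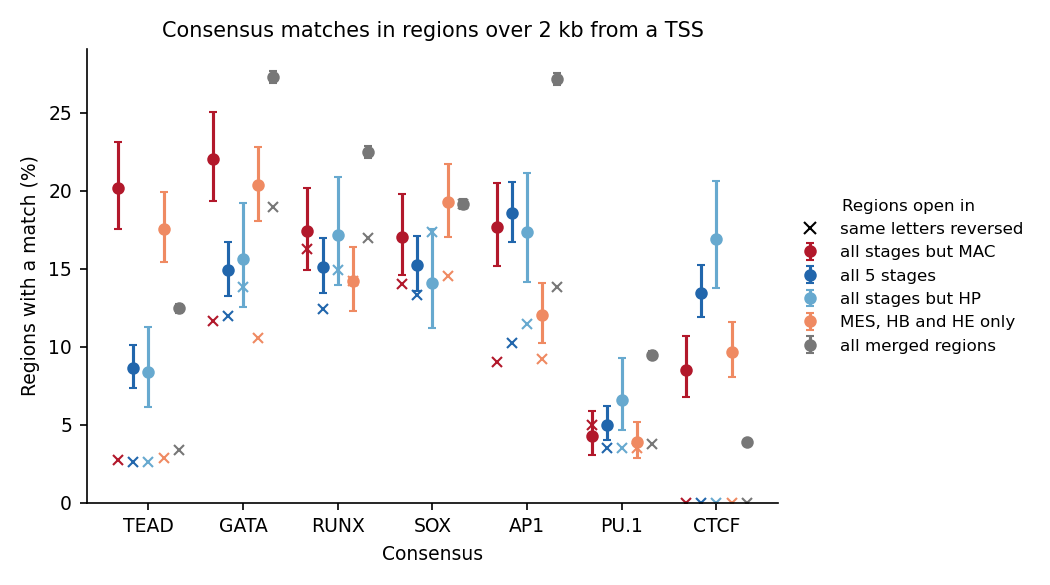
Share of regions over 2 kb from a TSS whose central 500 bp matched each consensus, in percent (vertical axis), by consensus (horizontal axis) and set of regions. Points are shares with Wilson 95% intervals, and crosses are the same letters reversed. For TEAD the non-MAC regions (red) stood at 20.2% and the shared regions (dark blue) at 8.65%, whereas for CTCF they stood at 8.52% and 13.5%.

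The TEAD matches were less frequent towards the edges of the regions, as they were in some of the other sets. Counted from the centre in steps of 50 bp, the non-MAC regions had 5.51 matches per 100 regions in the first step, 5.51 in the second and 6.14 in the third. The fourth step had 3.76 and the fifth 2.88. Regions open in MES, HB and HE only went from 5.97 in the first step to 1.99 in the fifth, all merged regions from 3.504 to 2.03, and shared regions from 2.19 to 1.25. The shared regions still had 2.13 in the fourth step. Regions that lacked a site in HP alone showed no such fall, with 2.20, 1.54, 1.10, 2.42 and 1.98 from the first step to the fifth.

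**Figure D3:**
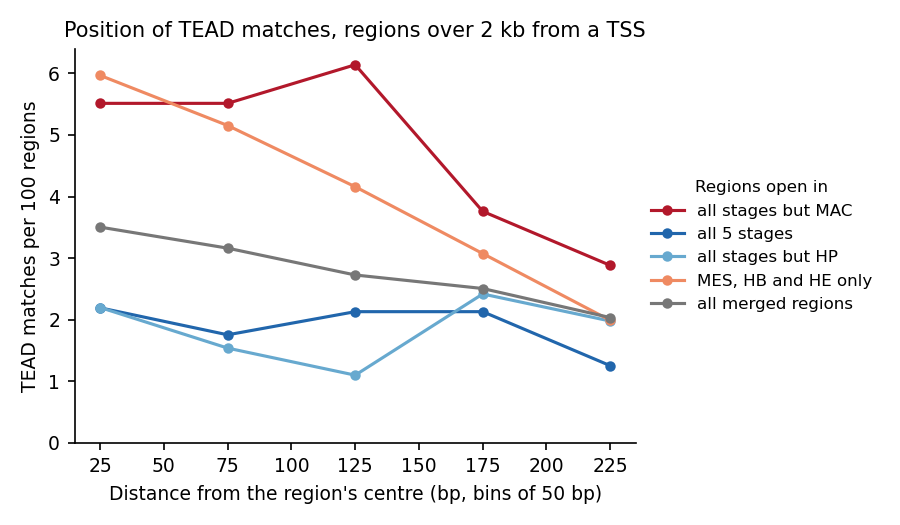
Matches to the TEAD consensus per 100 regions (vertical axis) by distance from the centre of the region in steps of 50 bp (horizontal axis), for regions over 2 kb from a TSS. Non-MAC regions (red) had 6.14 in the third step and 2.88 in the fifth, and shared regions (dark blue) had between 1.25 and 2.19 in every step.

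Non-MAC regions with a TEAD match differed from those without in their other sequences and in base composition. Of those with TEAD 4.97% (2.54 to 9.50) were CpG-rich, against 17.4% (14.7 to 20.6) of those without, and the median GC content was 53.4% against 55.0%. The part of base composition in the differences below was not tested. The AGATAA consensus of GATA factors was present in 34.8% (27.9 to 42.4) of the 161 regions with TEAD and in 18.8% (16.0 to 22.1) of the 637 without. AP-1 (TGANTCA), the site of the Fos and Jun factors, was present in 26.7% (20.5 to 34.0) against 15.4% (12.8 to 18.4). NFY (AGCCAATC or AGCCAATG), a factor of CCAAT boxes, was present in 3.11% (1.33 to 7.06) against 8.01% (6.14 to 10.4), and these intervals overlapped. RUNX (TGTGGTT or TGTGGTC) was alike, at 16.8% and 17.6%. The HB site was wider than the MES site in 88.8% (83.0 to 92.8) of regions with TEAD and in 78.5% (75.1 to 81.5) of those without. A match is a string of letters and does not show that a factor was bound.

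Of the other consensus sequences searched, GATA, E-box, T-box and TCF were more frequent over 2 kb in non-MAC than in shared regions with intervals apart, and CTCF and NRF1 less frequent. GATA was found in 22.1% (19.3 to 25.1) of those over 2 kb, above the 14.9% (13.2 to 16.7) of shared regions and below the 27.3% of all regions over 2 kb. Regions open in MES, HB and HE only had 20.3% (18.1 to 22.8), which overlapped the non-MAC interval. Regions that lacked a site in HP alone had 15.6% (12.6 to 19.2). Outside CpG-rich sequence GATA had 23.9% (20.8 to 27.2) in non-MAC against 18.8% (16.6 to 21.2) in shared regions, where the intervals overlapped. The reversed letters had 11.7% and 12.0%, so that GATA exceeded its reverse by more in the non-MAC set. The E-box (CAGCTG or CAGATG), the site of basic helix-loop-helix factors such as Tal1, had 58.5% (55.1 to 61.9) against 49.6% (47.2 to 52.1). The T-box (AGGTGTGA), the site of Brachyury and its relatives, had 27 of 798 (3.38%, 2.34 to 4.88) against 1.25% (0.813 to 1.93), and its reversed letters had 2.01% against 3.07%. TCF (ATCAAAG or TTCAAAG), the site of the WNT pathway, had 16.5% (14.1 to 19.3) against 11.9% (10.4 to 13.6). All regions over 2 kb had 57.5% for the E-box, 2.54% for the T-box and 18.3% for TCF. Outside CpG-rich sequence the intervals were apart for TEAD, T-box and CTCF. NRF1 had 0.627% (0.268 to 1.46) against 2.13% (1.53 to 2.96). CTCF was found in 8.52% (6.78 to 10.7), below the 13.5% (11.9 to 15.2) of shared regions and above the 3.89% of all regions. Regions open in MES, HB and HE only had 9.67% (8.07 to 11.6), which overlapped the non-MAC interval. Regions that lacked a site in HP alone had 16.9% (13.8 to 20.6). Without the narrow sites CTCF had 3.49% (1.61 to 7.40) in non-MAC against 4.99% in shared regions made the same way. With every list cut to the length of the shortest it had 6.11% (4.46 to 8.30) against 7.44%. In both settings the shared value lay within the non-MAC interval. RUNX had 17.4% against 15.1% and SOX (CCATTGT or CCTTTGT) 17.0% against 15.2%, with overlapping intervals and with reversed letters at 16.3% and 14.0% in the non-MAC set. PU.1 (GAGGAAGT), the site of the myeloid ETS factor, had 4.26% (3.06 to 5.89) against 5.01% (4.05 to 6.20), and all regions over 2 kb had 9.47%. Without the narrow sites the order of non-MAC and shared regions was the other way for RUNX, SOX and PU.1. The 2 ETS-type strings CCGGAAGT and GAGGAAGT share their last 6 letters and cannot match at the same position.

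At promoters, the ETS, YY1, NRF1 and PU.1 sequences were less frequent in the non-MAC than in the shared regions. The comparison was made among CpG-rich promoter regions, of which 550 were non-MAC and 6623 were shared. The ETS string CCGGAAGT, typical of promoters of housekeeping genes, was found in 4.18% (2.80 to 6.20) of the non-MAC and 13.5% (12.7 to 14.3) of the shared promoters. YY1 (AAGATGGC), found at many ribosomal and mitochondrial protein genes, had 2.91% (1.80 to 4.67) against 9.17% (8.49 to 9.88). NRF1 (GCGCATGCG), a regulator of mitochondrial genes, had 2.36% (1.39 to 4.002) against 5.99% (5.45 to 6.59). PU.1 had 1.64% (0.863 to 3.08) against 3.61% (3.19 to 4.09), and its reversed letters had 2.00% against 2.28%. NFY had 9.45% (7.28 to 12.2) against 11.7% (10.99 to 12.5), with overlapping intervals. Other sequences of constitutive promoters had overlapping intervals too. The SP string GGGGCGGGG had 32.7% (28.9 to 36.8) against 30.1% (29.03 to 31.2), CRE (TGACGTCA) 3.64% against 5.10% and E2F (TTTCCCGC or TTTGGCGC) 4.18% against 5.54%. TEAD went the other way, with 5.45% (3.85 to 7.68) against 3.13% (2.73 to 3.57). All CpG-rich promoter regions together had 9.45% for ETS, 6.82% for YY1, 4.26% for NRF1 and 3.604% for TEAD. CpG-rich promoters that lacked a site in HP alone, 184 in number and open in MAC, had 2.17% (0.849 to 5.46) for NRF1, 3.80% (1.85 to 7.64) for NFY and 5.98% (3.37 to 10.4) for TEAD. They had 8.70% (5.42 to 13.7) for ETS and 4.89% (2.59 to 9.03) for YY1. Each of these intervals overlapped that of the non-MAC promoters, and apart from NFY also that of the shared promoters. The shares of the non-MAC promoters also moved with the strictness of the lists. Without sites under each list's median width, ETS had 7.13% against 14.04% of shared promoters and YY1 6.29% against 9.59%, and with every list cut to the length of the shortest ETS had 8.84% and YY1 5.95%. Reversed letters had 2.00% or less in the non-MAC promoters for ETS, YY1, NRF1, NFY and TEAD.

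**Figure D4:**
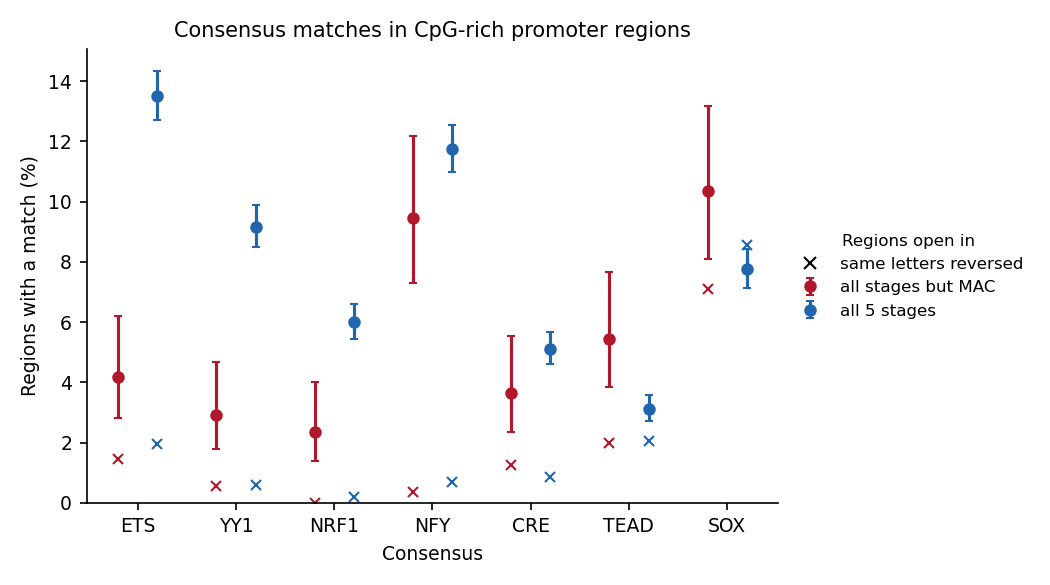
Share of CpG-rich regions within 2 kb of a TSS that matched each consensus, in percent (vertical axis), by consensus (horizontal axis). Points are shares with Wilson 95% intervals and crosses are the same letters reversed. ETS, YY1 and NRF1 were lower in the 550 non-MAC promoters (red) than in the 6623 shared promoters (blue), and TEAD was higher.

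A non-MAC region lay within 1 kb of a TSS of 797 of 21000 protein-coding genes (3.80%), and 1478 genes (7.04%) were the nearest gene of a non-MAC region. With every list cut to its widest sites, as many as the shortest list holds, 1551 genes had one at the promoter, and the Hippo count described next was then 7. Counts in gene lists are read against these shares. The lists were chosen with earlier results of these data known. They are described by their counts, with no test.

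The Hippo list had the highest share of the 14 lists, 8 of 23 genes (34.8%, 18.8 to 55.1) at the promoter against 3.80% of all genes, and 13 of 23 as nearest gene against 7.04%. The count at the promoter was 3 when sites under each list's median width were dropped. The TEAD factors themselves were among them, with promoter regions at Tead1, Tead2 and Tead3. At Tead1 the MES site measured 1200 bp, the HB site 1500 bp, the HE site 1100 bp and the HP site 1300 bp. At Tead2 they were 1100, 1400, 1600 and 1000 bp, and at Tead3 1000, 1200, 900 and 700 bp, in the same order of stages. The nearest MAC interval lay 17.5 kb, 17.3 kb and 21.9 kb away. Tead4 was the nearest gene of a region 14.8 kb into it, in an intron, with a narrow MES site (300 bp) and a wide HB site (1200 bp).

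Among the coactivators and regulators, Yap1, Lats2 and Amotl2 had a promoter region. At Yap1, the coactivator, the sites widened from 900 bp in MES to 1500 bp in HB and 2000 bp in HE, and the HP site measured 400 bp. The nearest MAC interval was 37.8 kb away. At Lats2, the kinase that inhibits YAP, they measured 700, 1100, 1200 and 700 bp, and at Amotl2, an angiomotin that retains YAP at junctions, 1200, 1400, 1700 and 1500 bp. Other regulators were the nearest genes of regions away from their promoters. These were Wwc1 and Amot, which act upstream of YAP, Vgll4, which competes for TEAD, and Ajuba, which binds LATS kinases and was nearest to 2 regions. Most of the core kinases and their partners were not among the members. Wwtr1, which encodes TAZ, and Lats1, Stk3, Stk4, Sav1, Mob1a, Mob1b, Nf2 and Wwc2 each had a MAC site within 1 kb of a TSS and no non-MAC region.

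The target genes completed the list. At Ccn2 the sites measured 1000, 1200, 1600 and 700 bp, and at Ccn1 700, 1100, 1900 and 600 bp. Both secreted matricellular proteins are standard readouts of YAP activity, and at both promoters the nearest MAC interval was 2.93 kb away. Ccn1 was the nearest gene of 2 further non-MAC regions, 17.0 kb downstream and 35.2 kb upstream of its TSS. The TEAD consensus was present in 4 of the 8 promoter regions of the list, at Ccn2, Amotl2, Lats2 and Tead1, and in 3 of the 11 other regions nearest to its genes. Over all non-MAC regions it was present in 6.60% of those at promoters and 20.2% of those over 2 kb. A MAC site lay within 1 kb of a TSS of 11 of the 23 genes, against 22 in MES, 21 in HB, 22 in HE and 19 in HP. Over all protein-coding genes these shares were 48.6% in MAC, 55.97% in MES, 57.6% in HB, 60.3% in HE and 48.995% in HP, so that the list stood above all genes in the 4 earlier stages and near them in MAC. The 8 promoter regions were chosen for windows in these 4 stages and none in MAC. The counts by stage therefore partly repeat that choice and add no separate evidence.

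**Figure D5:**
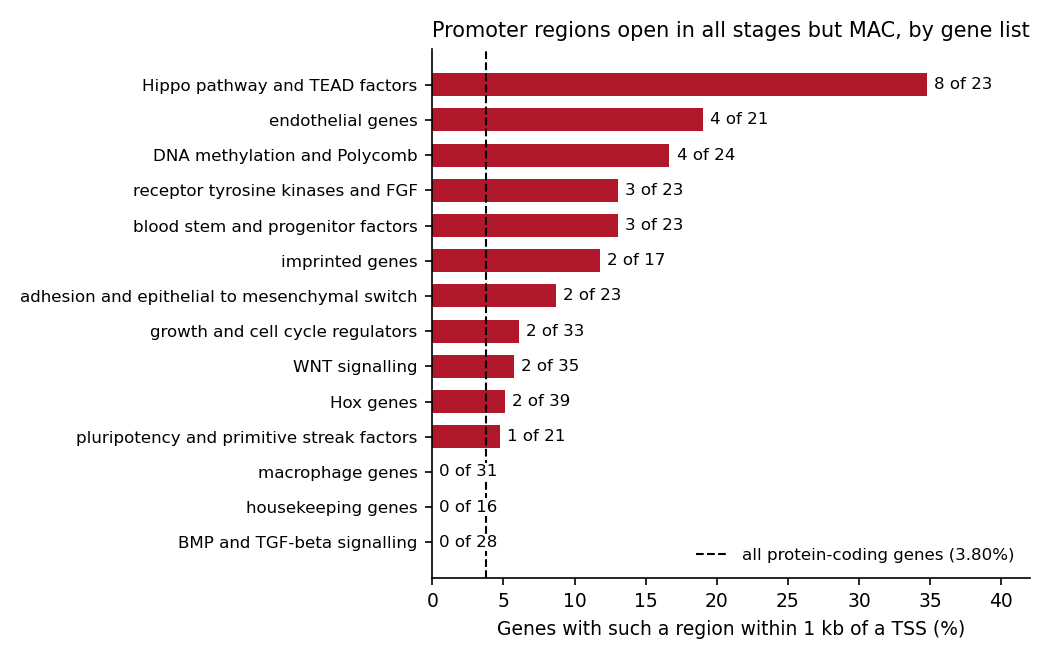
Share of the genes of each list with a non-MAC region within 1 kb of a TSS, in percent (horizontal axis), by gene list (vertical axis). Bars start at 0, the numbers give the count of genes, and the dashed line marks the 3.80% of all protein-coding genes. The Hippo list stood at 34.8%, and the macrophage, housekeeping and BMP lists stood at 0.

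Blood and endothelial genes held 7 promoter regions between them. Of 23 blood stem and progenitor genes, Kit, Gata2 and Hoxb4 had one (13.0%, 4.54 to 32.1). At Kit, the receptor of stem cell factor, the sites measured 1200, 1500, 1700 and 600 bp and the nearest MAC interval was 116 kb away. At Gata2 they measured 700, 900, 1900 and 800 bp, and at Hoxb4, a homeobox gene of progenitors, 500, 900, 2000 and 600 bp. All 3 genes thus had their widest site in HE, as did 75.8% of all non-MAC regions. Tal1, Lyl1, Etv2 and Myb, transcription factors of hemangioblast and progenitor, were nearest genes of regions 3.14 to 29.5 kb from a TSS. Of 21 endothelial genes, Notch1, Dll4, S1pr1 and Mcam had a promoter region (19.05%, 7.67 to 40.0). At the receptor Notch1 the sites measured 1100, 1000, 2000 and 900 bp, and at its ligand Dll4 800, 700, 1500 and 600 bp. S1pr1, a receptor of a blood-borne lipid, had a MAC interval 0.836 kb away. Esam, an adhesion molecule of endothelium, was the nearest gene of a further region.

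Signalling and adhesion lists ranged from none to 13.0% at the promoter. Of 35 WNT genes, the receptor Fzd9 and the inhibitor Sfrp1 had a promoter region (5.71%, 1.58 to 18.6), and Tcf7l1, Tcf7l2, Lef1 and Tle3, which encode TCF factors and a corepressor, were nearest genes of distant ones. None of 28 BMP and TGF-beta genes had one, which allows a share of up to 10.7%, whereas 6 were nearest genes. Bmp4, the ligand that patterns mesoderm, was nearest to 2 regions, as was Smad6, an inhibitor of the pathway. The others were the ligand Tgfb2, the signal transducer Smad3, the inhibitor Smad7 and the target Id3. Of 23 receptor tyrosine kinase and FGF genes, Fgfr2, Erbb3 and Ephb4 had a promoter region (13.0%). At Fgfr2 the sites measured 600, 1000, 1700 and 600 bp and at Ephb4, a receptor of venous endothelium, 1200, 1600, 1900 and 1300 bp. Fgfr1 was nearest to 2 further regions, and the collagen receptor Ddr1 and the inhibitor Spry2 to 1 each. Of 23 adhesion genes, the mesenchymal repressor Snai2 and the tight junction gene Tjp1 had one (8.70%). Tjp1 had sites of 400, 1200, 1500 and 800 bp. The cadherins Cdh1 and Cdh2 and the repressor Snai1 were nearest genes of other regions.

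Genes of chromatin and growth were represented by a few members. Of 24 DNA methylation and Polycomb genes, Dnmt3a, Cbx2, Phc1 and Ring1 had a promoter region (16.7%, 6.68 to 35.9). Dnmt3a encodes a de novo DNA methyltransferase, and its nearest MAC interval was 0.355 kb away. The other 3 encode subunits of Polycomb complexes, with MAC intervals 2.21 kb (Ring1) to 29.7 kb (Phc1) away. Tet1, which oxidizes methylated cytosine, and the Polycomb genes Cbx7, Cbx8 and Phc2 were nearest genes. Of 33 growth and cell cycle genes, E2f2 and Igf2bp1 had one (6.06%), and Myc, Lin28b, Igf2bp3, Ccnd2 and Cdc6 were nearest genes of other regions. Of 17 imprinted genes, Plagl1 and Snrpn had one (11.8%, 3.29 to 34.3). The Snrpn region, with sites of 600, 900, 1900 and 1500 bp, lay 680 kb from a MAC interval. The growth factor gene Igf2 and Mest, Dlk1 and Gnas were nearest genes. Of 39 Hox genes Hoxb4 and Hoxc13 had one (5.13%), and of 21 pluripotency and streak genes Lhx1 had one (4.76%). Hoxa2, Hoxb3, Esrrb and Eomes of these lists were nearest genes.

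The macrophage and housekeeping lists held no promoter region, but 1 macrophage and 2 housekeeping genes were nearest genes. None of 31 macrophage genes had one, which allows up to 9.68%, and none of 16 housekeeping genes, which allows up to 18.8%. All 16 housekeeping genes had a site within 1 kb of a TSS in all 5 stages, and 26 of the macrophage genes had one in MAC. The rule leaves out regions with a MAC window, so these absences were largely set by it and are no control. Irf8, a transcription factor of monocytes, was the nearest gene of a non-MAC region 62.3 kb downstream of its TSS. Of the housekeeping genes Gapdh and Eef1a1 were nearest genes, 12.5% against 7.04% of all genes. Genes named Zfp with a number, which encode zinc finger proteins and often lie in clusters, were a further group, looked at after the values were seen. Of 395 such genes 27 (6.84%) had a non-MAC region at the promoter. On the X chromosome, 14.9% (10.7 to 20.3) of the 215 promoter regions open in MES, HB, HE and HP were not open in MAC, against 9.57% (8.95 to 10.2) on the autosomes. Over 2 kb from a TSS the order was the other way, with 25.5% (15.5 to 38.9) of 51 regions against 33.5% (31.6 to 35.5), and these intervals overlapped.

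A few genes gathered several non-MAC regions. Shroom3, which shapes epithelial cells through actin, was the nearest gene of 4, and 13 genes were nearest to 3 each. Among the latter were Prex1, Kirrel, Csf1 and Ccn1, together with Tead1, Irs2, Foxl1 and Hspb1. The 4 regions of Shroom3 had one at a promoter and 3 up to 27.2 kb from a TSS, and 2 of them held a TEAD match. Csf1 encodes the growth factor on which macrophages depend. Its 3 regions were centred in annotated introns, 15.9 to 19.9 kb from a TSS of Csf1, with MES sites of 300 to 700 bp, HB sites of 700 to 1100 bp, HE sites of 900 to 1500 bp and HP sites of 500 to 800 bp. A MAC interval lay 0.971 kb from one of them and 7.41 and 8.69 kb from the others.

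Many genes next to non-MAC regions had sites of MAC elsewhere. Of the 797 genes with such a region at the promoter, 145 also had a MAC site within 1 kb of a TSS, a count that the choice of regions without MAC limits. Of the 737 nearest genes of non-MAC regions over 2 kb, 50.6% had a MAC site within 1 kb of a TSS, against 61.1% of the nearest genes of shared regions over 2 kb and 48.6% of all genes. A region over 2 kb that was open in MAC alone lay nearest to 60.0% of these 737 genes, against 38.02% of all genes and 59.4% of the nearest genes of shared regions over 2 kb. The distance from a non-MAC region to the nearest MAC interval had a median of 11.7 kb, with quartiles of 4.05 and 31.2 kb. For regions open in MES, HB and HE only the median was 15.1 kb.

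The regions nearest to the limit show how sharp the absence from MAC was. The deposited MAC intervals overlapped 68 non-MAC regions (4.25%, 3.36 to 5.35), and 55 of these were at promoters. Overlap was measured on the joined 500 bp windows of a region and not on its deposited sites, which can reach further. In 51 non-MAC regions the MAC window itself overlapped, by less than the required 25%. The 5 widest promoter regions, at Tfap4, Actr1a, Ube2g1, Smim27 and Slc6a9, all overlapped a MAC interval. At Tfap4 the sites measured 2400, 2100, 2400 and 2000 bp, and the MAC interval overlapped the joined windows by 0.339 kb. A part of this broad open stretch was thus listed in MAC too. The 5 regions nearest to a MAC window lay at Hdlbp, Zbtb11, Gk5, Chid1 and Kif26a. Just outside, the shared regions with the smallest overlap lay at Nrarp (127 bp), Ubash3b and Ppm1m (129 bp each), Rgs6 (130 bp) and Fam160a2 (133 bp).

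At the other end some regions were far from any MAC site. The promoter region of Tmem47 on the X chromosome was 3274 kb from the nearest MAC interval. Those of Zik1 and Irx2, a zinc finger and a homeobox gene, were 1515 kb and 699 kb away, a region nearest to Amot 1007 kb and one nearest to Cntn3 798 kb. At Tmem47 the sites measured 600, 1100, 1600 and 900 bp. Of the widest regions over 2 kb, the one on chromosome 9 at 3026051 to 3026650, nearest to Alkbh8, was 97.6% repeat-masked, with sites of 2200 to 2500 bp and a MAC interval overlapping it. The others were nearest to Ypel4, Bcl9l, Ier2 and Sap18b.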

How the data were processed

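DNaseI-seq was analysed in 5 sorted populations (MES, HB, HE, HP and MAC). The authors digested cells with DNaseI, size-selected short fragments, aligned reads to mm10 (Bowtie and HOMER are named in the submitters' processing notes) and called DHSs with DFilter in 100 bp bins. The deposited files hold the positions of called sites, with no count, score or signal, and every width was a multiple of 100 bp. The authors' own comparisons were not used.

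Members and gene lists were chosen with earlier results of these data known. Sites were set to 500 bp windows and chained where they shared at least 25% of a window's length, as fixed for this set. Regions were annotated to the nearest of 25999 protein-coding TSS positions (21000 genes, RefSeq, GRCm38.p6), where promoter means within 2 kb and a gene counts as having a promoter region at a reach of 1 kb. The 4 merged regions of the mitochondrial genome were left out of annotation. Exact matches to 26 consensus sequences were searched on both strands of the central 500 bp. Shares have Wilson 95% intervals, and 3 counts set the limit for a count of 0. With 1 list per stage no test between stages was possible. Named were all list genes with a member, the 5 genes nearest to most members (ties by chromosome and start), the 5 widest promoter members and the 5 widest members over 2 kb by their narrowest site, the 5 members farthest from and nearest to a MAC window, and the 5 shared regions with the smallest MAC overlap. Sequences were read from the genome, leaving out exons beyond 30 bases. Scripts used Python 3.11.15, pandas 2.3.3, NumPy 2.4.6 and statsmodels 0.14.6, and merging and motif search were tested on simulated data. Other merges, stricter lists, other definitions and members clear of MAC were tried as alternatives.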

Additional observations from a re-analysis of the deposited data

How the results depend on the processing

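Limits: 1 list per stage allows no replicate error, and the lists give no read depth, so that absence from the MAC list is absence of a called site. No paired analysis was possible because each stage has 1 list. Of 114 alternative values, 79 stayed within the interval, or for counts within 1.5 times, or for medians within 100 bp, of the value reported. When sites under each list's median width were dropped there were 776 members, 77.8% at promoters and 67.9% CpG-rich, and the shares over 2 kb were 3.49% for CTCF, 11.05% for RUNX and 12.2% for SOX. The median widths were then 1000 bp (MES), 1200 bp (HB), 1600 bp (HE) and 1000 bp (HP). When every list was cut to its widest sites, as many as the shortest list holds, 71.3% lay at promoters and 62.2% were CpG-rich, CTCF had 6.11% and RUNX 14.9%, and 1551 genes had a member at the promoter. With the TSS of all transcripts the promoter share was 59.0%, at a reach of 1 kb it was 47.6%, and the stricter CpG rule gave 34.0%. In the central 200 bp the shares were 9.52% (TEAD), 10.2% (GATA), 5.01% (CTCF), 7.14% (RUNX), 6.77% (SOX) and 1.00% (PU.1). Over 20 kb they were 23.4% (TEAD), 25.8% (GATA), 6.59% (CTCF) and 3.02% (PU.1). The cause of these shifts was not tested. The side on which the members lay of the shared regions held in 8 of 8 alternatives for TEAD, GATA, CTCF and the promoter share, in 7 of 8 for RUNX and PU.1, and in 5 of 8 for SOX. Without the narrow sites RUNX lay below the shared regions (14.01%), SOX below (14.2%) and PU.1 above (4.65% against 4.22%). After seeing the data, the Hippo count (8 of 23) and the CpG-rich promoter shares of ETS, YY1 and NRF1 were added. The Hippo count was 3 without the narrow sites and 7 to 9 in the other 7 alternatives. ETS ranged from 1.45% to 8.84%, YY1 from 1.09% to 6.29% and NRF1 from 1.45% to 3.49%, each below the shared regions under the same setting.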
